A study of Mus musculus with 10 samples.

Results

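The comparison described here is the earliest step of HOXB4 withdrawal. HOXB4 is a homeobox transcription factor that binds DNA, often together with PBX and MEIS partner proteins, and whose overexpression lets haematopoietic stem and progenitor cells multiply outside the body. HOXB4-ER is a fusion of HOXB4 with a part of the oestrogen receptor. It enters the nucleus when 4-hydroxytamoxifen (TMX) is bound, and taking TMX away is meant to switch it off. The cells examined were HOXB4-ER cells kept for 1 h without TMX, set against HOXB4-ER cells kept for 1 h with 10 nM TMX. Each condition had 2 arrays, so 4 of the series' 10 arrays enter the difference, paired by the biological replicate number in the labels. Genes with a mean log2 signal of at least 7 over all 10 arrays are called bright genes here, and 5886 of 18193 genes were bright.

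All arrays came from mouse Lin-Sca1+ cells transduced with a retroviral vector that also expresses a green fluorescent protein, and the labels give neither strain nor age of the donors. The cells grew for 14 days in serum-free medium with SCF, FL, IL-11 and IL-3 and with 10 nM TMX, were sorted as GFP+, lineage-negative, Sca1+, c-kit+ (LSK) cells, stayed 12 h more with TMX, and were then divided between medium without and medium with TMX. HOXB4const cells, which carry unmodified HOXB4 that does not need TMX, gave 2 arrays after 1 h without TMX and 2 after 1 h with TMX, as the control for TMX itself. A further 2 arrays held HOXB4-ER cells after 4 h without TMX. Every group carried a HOXB4 transgene, had been exposed to TMX, and was a transduced population, not a clone. The location of the fusion protein was not measured on these arrays.

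The sorted identity could be checked in part on the 4 HOXB4-ER arrays. Kit, the receptor for stem cell factor, ranged between 9.01 and 10.25, Cd34 between 11.15 and 11.86 and Ptprc, the pan-leucocyte phosphatase CD45, between 10.87 and 11.85 (log2). Of the lineage markers, Cd3e averaged 3.01, Cd4 2.37, Cd8a 5.09 and Itgam 6.03 over these 4 arrays. Itgam, an integrin of myeloid cells, reached 8.04 on 1 of them. Signals of different probe sets cannot be set against each other, and genes of maturing myeloid cells were bright, with means over 10 arrays of 11.95 for Mpo, 12.01 for Cpa3 and 10.95 for Lyz2. These levels therefore do not show how pure the sort was. Ly6a, the gene of Sca1, was not examined here.

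The signal of Hoxb4 itself was below the bright range. Its brighter probe set read 6.12 and 5.78 without TMX, against 5.51 and 4.95 with TMX, so both arrays without TMX were the higher ones. The difference was 0.72 ± 0.49 (log2, limma standard error) and did not pass (adjusted p = 0.992). Esr1, the gene of oestrogen receptor alpha, read 5.88 and 5.07 without TMX and 6.26 and 5.77 with TMX, a difference of −0.54 ± 0.43. Neither value reports on the activity of the fusion protein, because TMX acts on where the protein is. Whether TMX changed its messenger RNA, and whether these probe sets detect the transgene, was not tested.

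Bright genes barely differed as a whole after 1 h. The median of without minus with TMX over the 5886 genes was −0.04 (log2), and 92.7% of them lay within 0.5 to either side of 0. The middle of the distribution ran between −0.21 and 0.14 (25th and 75th percentiles). Only 17 bright genes differed by 1 or more, a doubling or halving of signal, in the mean of the 2 pairs. The median over all 45037 probe sets was 0.12, since dim probe sets lay higher.

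No probe set passed the test. With limma over all 10 arrays, the replicate number as a block and a variance trend, 0 of 45037 probe sets (0%) had an adjusted p under 0.05, and 1833 had an unadjusted p under 0.05, against 2252 that this threshold would give if no level differed. Among the 9014 bright probe sets, 258 (2.86%) had an unadjusted p under 0.05, against 451 by the same reckoning. The smallest adjusted p was 0.109. The median standard error of a bright gene's difference was 0.27, which makes its 95% interval reach 0.58 to either side. For the median bright gene, then, differences under about that size have an unadjusted interval in this fit that includes 0. Passing the adjusted threshold takes larger differences. For probe sets below 7 the same interval reached 2.57.

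The limit of 7 follows the noise of the arrays. The median SD between the 2 arrays of a group was 1.42 for probe sets with a mean between 2 and 3, 0.37 between 7 and 8 and 0.35 between 8 and 9. The gene just inside the limit was Zfp629, with 0.20 ± 0.31 without minus with TMX. The gene just outside was Poli, a DNA polymerase of lesion bypass, with −0.04 ± 0.35.

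Counts of genes whose arrays separated by condition give a second view. Both arrays without TMX lay above both with TMX for 696 of the 5886 bright genes (11.8%) and below both for 800 (13.6%). In HOXB4const cells the same counts were 213 higher (3.62%) and 654 lower (11.1%). Separation together with a difference of 1 or more was rarer in HOXB4-ER cells, with 2 genes higher (0.034%) and 12 lower (0.204%), against 0 higher and 2 lower (0.034%) in HOXB4const cells. Which side held more genes in HOXB4-ER cells depended on the scaling. After quantile normalization 767 were separated higher and 709 lower, and with arrays centred on the median of bright probe sets 865 higher and 681 lower. These counts carry no test, and no call of a single gene rests on them. With 2 arrays a condition, noise alone separates a share of genes in each direction, and that share was not estimated. The counts therefore do not show an excess over noise. The contrast with the HOXB4const counts was not tested either.

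The 2 replicate pairs resembled each other weakly. Across the 5886 bright genes, which share arrays and are not independent replicates, the difference in pair 1 correlated with that in pair 2 at Pearson's r = 0.245 (Spearman's rho 0.222). In HOXB4const cells the 2 pairs ran against each other, with r = −0.483. Pair 1 of HOXB4-ER cells correlated with pair 1 of HOXB4const cells at 0.383, which is above its correlation with the second HOXB4-ER pair. The spread of differences was wider in pair 1 than in pair 2 of HOXB4-ER cells, with SDs of 0.42 and 0.29 (log2).

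**Figure D1:**
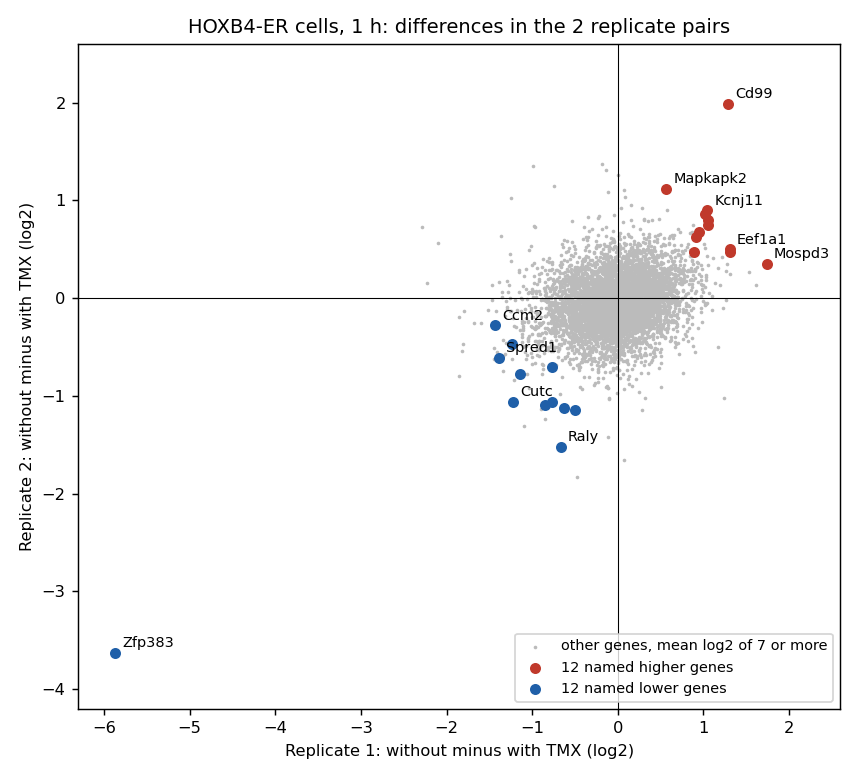
Differences without minus with TMX after 1 h in HOXB4-ER cells (log2), replicate pair 1 on the horizontal and pair 2 on the vertical axis. Each point is 1 of 5886 bright genes, with the 12 named higher genes in red and the 12 named lower genes in blue; most points form a cloud around 0 and Zfp383 lies alone at −5.87 and −3.63.

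The genes named next are the 12 higher and 12 lower bright genes with the smallest limma p among those with separated arrays. They were ranked on these same values, none passed in the fit over 10 arrays, and their differences are therefore a description. The ranking by p rewards agreement between arrays, so the 24 lie at or beyond the edge of the cloud in the plot of the 2 pairs.

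The largest difference of any bright gene belonged to Zfp383, which encodes a zinc finger protein. Its brighter probe set read 2.37 and 3.78 without TMX, against 8.24 and 7.41 with TMX, so the values without TMX lie in the range where arrays of one group differ most. The difference was −4.75 ± 0.83 (log2; adjusted p = 0.726). The same probe set also varied in HOXB4const cells, where it read 10.13 and 8.02 without TMX and 6.85 and 10.39 with TMX. After 4 h without TMX it read 7.45 and 7.88, close to the values with TMX at 1 h. The other probe set of Zfp383, with a mean of 4.71, differed by −0.86 ± 0.81.

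Among the higher genes, Cd99, a surface glycoprotein that leucocytes use to cross endothelium, led. It read 8.35 and 8.0 without TMX, against 7.06 and 6.01 with TMX. That is a difference of 1.64 ± 0.39, a 3.12-fold higher signal. In HOXB4const cells the difference was −0.19 ± 0.39, and after 4 h in HOXB4-ER cells it was −0.22, against the same arrays with TMX.

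Kcnj11, the pore subunit of ATP-sensitive potassium channels, read 9.69 and 8.72 without TMX and 8.64 and 7.83 with TMX. Its difference was 0.97 ± 0.27. The 2 groups hardly clear each other here, because the lower array without TMX is only just above the higher one with TMX. The agreement is between pairs. The gaps of Mapkapk2, Orc4 and Kif5b, whose values follow below, are about as small. Kcnj11 was lower in HOXB4const cells without TMX, at −0.65 ± 0.27, and it also lay lower after 4 h in HOXB4-ER cells, at −0.44.

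A further 3 of the higher genes, Uhrf2, Msl2 and Bahcc1, encode proteins of chromatin, while the list of Polycomb and trithorax genes given further on had a median of −0.03. Uhrf2, a ubiquitin ligase that binds modified cytosine in DNA, read 8.12 and 8.01 without TMX, against 7.11 and 7.14 with TMX. Its arrays without TMX and with TMX formed 2 tight groups, 0.94 ± 0.27 apart, and the 4 h arrays lay 1.10 above the same arrays with TMX. Uhrf2 was also higher without TMX in HOXB4const cells, at 0.52 ± 0.27 with separated arrays. Msl2, a subunit of a histone H4 acetyltransferase complex, read 8.70 and 7.96 without TMX and 7.38 and 7.48 with TMX. Bahcc1, a BAH-domain chromatin protein, read 7.98 and 7.86 without TMX, against 7.06 and 7.24 with TMX. After 4 h neither kept that distance, with −0.05 for Msl2 and 0.10 for Bahcc1. Maz, a zinc finger transcription factor, read 8.65 and 8.80 without TMX and 7.60 and 8.04 with TMX, a difference of 0.90 ± 0.36.

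Signalling enzymes made up another pair. Mapkapk2, the kinase MK2 that p38 activates, read 8.96 and 8.44 without TMX, against 8.39 and 7.32 with TMX, 0.84 ± 0.27 apart. Ppp5c, a serine/threonine phosphatase that associates with HSP90, read 8.52 and 8.13 without TMX and 7.47 and 7.34 with TMX, 0.93 ± 0.30 apart. Ppp5c had 2 bright probe sets, and they gave 0.93 and 0.89. In HOXB4const cells both genes lay slightly lower without TMX, at −0.17 and −0.18. Mospd3, a membrane protein with a major sperm protein domain, read 8.05 and 7.79 without TMX and 6.31 and 7.44 with TMX, and its pairs differed unequally, at 1.74 and 0.35.

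The last of the higher genes, Actb, Eef1a1 and Rps10, encode beta-actin, the translation elongation factor eEF1A1 and a protein of the small ribosomal subunit. They are known as abundant messages. Eef1a1 read 14.49 and 13.65 without TMX, against 13.18 and 13.15 with TMX. The other bright probe set of Actb differed by −0.04. The differences of 0.68 ± 0.25 for Actb, 0.90 ± 0.35 for Eef1a1 and 0.81 ± 0.32 for Rps10 shrank to 0.23, 0.21 and 0.33 after quantile normalization of the arrays. They belong with the brightest genes described further on.

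Of the lower genes after Zfp383, Spred1 is the one with the clearest place in signalling: it is an inhibitor of RAS and ERK activation. Its brightest probe set read 7.26 and 7.59 without TMX, against 8.65 and 8.20 with TMX, a difference of −0.997 ± 0.331. Its 5 bright probe sets gave −0.997, −0.999, −0.51, −0.03 and 0.25, so they differed among themselves in size and sign. After 4 h the brightest one lay at −0.94 against the same arrays with TMX. In HOXB4const cells it lay at −0.33 ± 0.33, and the difference between populations, −0.67 ± 0.47, did not pass.

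Il15, a cytokine that sustains natural killer and memory T cells, read 6.04 and 5.96 without TMX, against 6.90 and 7.05 with TMX. The arrays agreed closely within each condition, at −0.97 ± 0.32, and after 4 h Il15 lay on the other side, at 0.86. Cutc, a copper-binding protein, read 6.12 and 6.69 without TMX and 7.34 and 7.75 with TMX. Raly, an RNA-binding protein of the hnRNP family, read 7.58 and 6.71 without TMX and 8.25 and 8.23 with TMX. Cutc was lower by 1.14 and Raly by 1.09, and in HOXB4const cells both lay slightly above 0, at 0.23 and 0.14.

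Components of DNA replication were also found among the lower genes. Orc4, a subunit of the origin recognition complex, read 6.61 and 7.75 without TMX, against 7.84 and 8.23 with TMX. Chtf8, a subunit of an alternative clamp loader, read 8.17 and 8.35 without TMX, against 8.80 and 9.47 with TMX. Their differences were −0.85 ± 0.28 and −0.87 ± 0.24, although DNA replication genes as a list lay near 0, as given below. Chtf8 was the only 1 of the 12 lower genes whose arrays were separated in the same direction in HOXB4const cells, where the difference was −0.18 ± 0.24.

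The other lower genes had varied roles. Kif5b, the heavy chain of kinesin-1, read 8.17 and 7.57 without TMX and 8.93 and 8.27 with TMX, and Kifbp, a protein that binds kinesins, read 7.39 and 7.78 without TMX and 7.90 and 8.92 with TMX. Kif5b stayed lower by 0.68 after 4 h, whereas Kifbp lay at 0.55 there. Fnip1, a partner of folliculin in energy and nutrient sensing, was lower by 0.96, Snap47, a SNARE protein of membrane fusion, by 0.91, and Ccm2, a scaffold protein of endothelial junction signalling, by 0.86. For Ccm2 nearly all of that came from pair 1, at −1.44, against −0.28 in pair 2, and its other bright probe set differed by 0.00879.

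**Figure D2:**
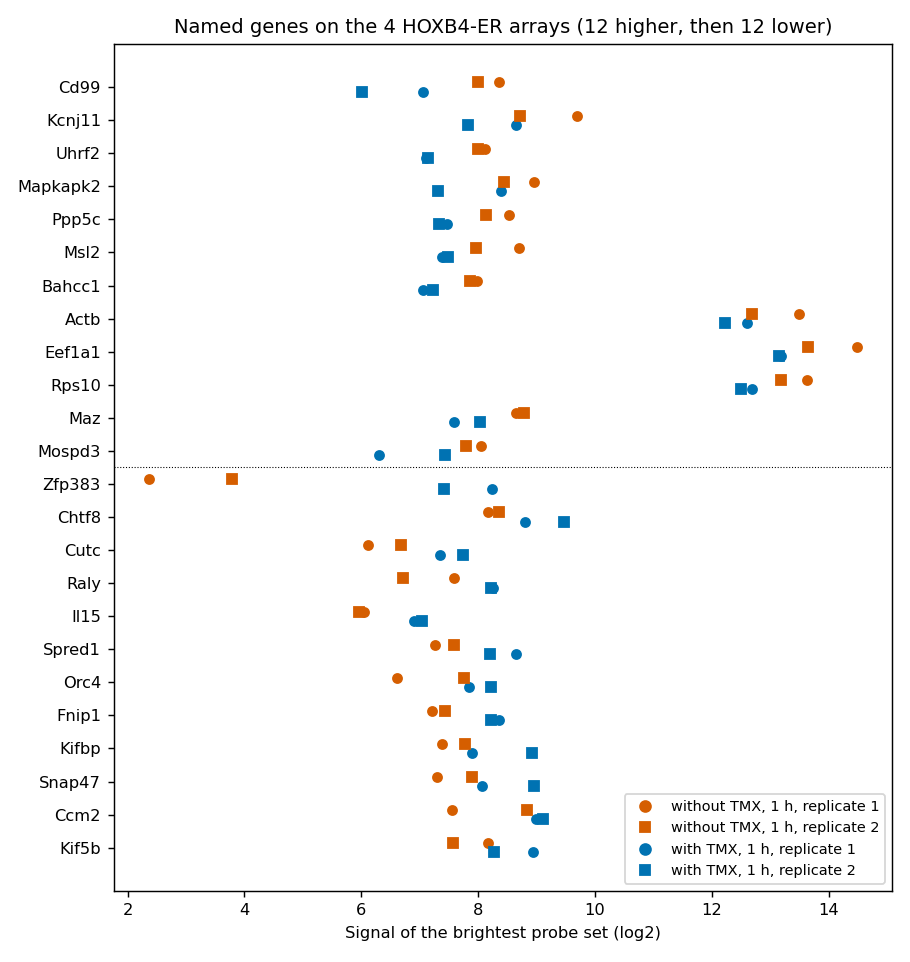
Log2 signal of the brightest probe set of the 24 named genes (rows) on the 4 HOXB4-ER arrays after 1 h, without TMX (orange, upper) and with TMX (blue, lower), replicate 1 as circles and replicate 2 as squares. In every row the 2 orange points lie on one side of the 2 blue ones, which is how the genes were chosen. The gap is widest for Zfp383 and narrow for Kcnj11, Mapkapk2, Orc4 and Kif5b, among others.

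HOXB4const cells went through the same removal of TMX with a HOXB4 that does not depend on it. There, 0 of 45037 probe sets passed limma's test, and 1656 had an unadjusted p under 0.05. Of the 12 higher genes, 7 had a difference of the same sign in HOXB4const cells, as had 8 of the 12 lower genes. The difference between the populations had an unadjusted p under 0.05 for 4 of the higher genes (Cd99, Kcnj11, Mapkapk2 and Ppp5c) and for 4 of the lower ones (Zfp383, Cutc, Raly and Fnip1), with an adjusted p of 1.00 for each of the 8. Across all probe sets, 0 passed for that difference, 1371 had an unadjusted p under 0.05 and the smallest adjusted p was 0.710. No bright gene was thus shown to respond differently in HOXB4-ER and HOXB4const cells.

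**Figure D3:**
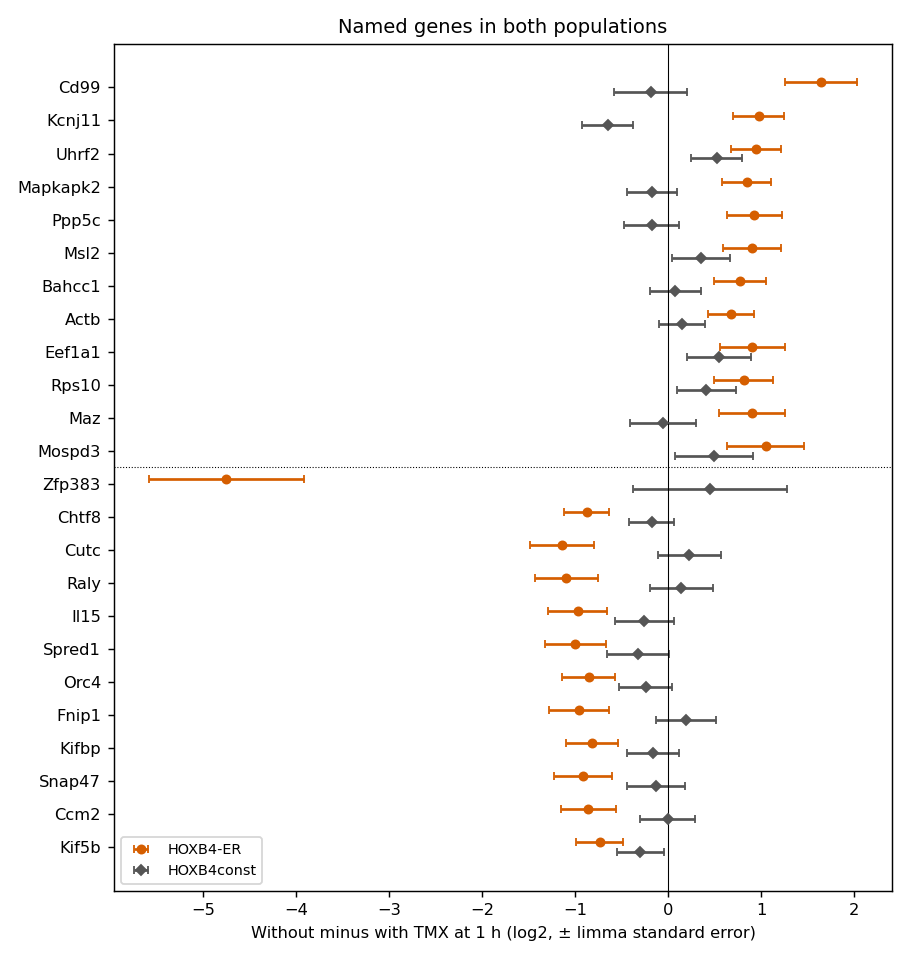
Differences without minus with TMX after 1 h (log2, with limma standard errors) of the 24 named genes in HOXB4-ER cells (orange circles) and HOXB4const cells (grey diamonds). The HOXB4const values lie mostly within 1 standard error of 0, and Kcnj11 lies at −0.65 there, against 0.97 in HOXB4-ER cells.

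The genes that stood out by p in HOXB4const cells were others. Slc35a2, a transporter of UDP-galactose, lay at −0.32 ± 0.34 in HOXB4-ER and at 0.98 ± 0.34 in HOXB4const cells. Ubr3, a ubiquitin ligase, lay at 0.42 and 0.70, and Cep57l1, a relative of a centrosomal protein, at −0.28 and 0.73, with HOXB4-ER cells first. Hes6, a helix-loop-helix repressor of the Notch field, lay at −0.18 in HOXB4-ER and −0.99 in HOXB4const cells. Mrpl22, a mitochondrial ribosomal protein, lay at −0.08 and −0.83 in the same order, and Slc25a28, a mitochondrial iron importer, at −0.20 and −0.88. For the difference between populations, Smpd4 (0.50 against −0.86), Hars (−0.71 against 0.40) and Armcx2 (−1.02 against 0.49) joined Kcnj11, Cd99 and Zfp383 as the bright genes with the smallest p, and none passed. Of the 696 genes separated higher in HOXB4-ER cells, 53 (7.61%) were also separated higher in HOXB4const cells, where they made up 24.9% of the 213, and 99 (14.2%) were separated lower there, 15.1% of the 654. Of the 800 separated lower in HOXB4-ER cells, 69 (8.62%) were separated lower in HOXB4const cells, 10.6% of the 654, and 23 (2.88%) were separated higher, 10.8% of the 213. Over all bright genes, the HOXB4const shares were 3.62% higher and 11.1% lower, so genes separated higher in HOXB4-ER cells had above-average shares on both sides, and genes separated lower had below-average shares on both.

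The count of calls differed between fits to different sets of arrays. A fit to the 4 HOXB4-ER arrays after 1 h alone, with 1 residual and 97.3 prior degrees of freedom, called 135 of 45037 probe sets (0.3%), where the fit to 10 arrays called 0. Of these, 84 were bright (0.932% of 9014), 17 higher and 67 lower without TMX. The same fit to the 4 HOXB4const arrays called 0 probe sets. By brightest probe set it called 9 genes higher (0.153% of 5886) and 25 lower (0.425%), among them 8 of the 12 named higher and 8 of the 12 named lower genes. Beyond the named ones it called, as examples outside the rule for named genes, Scpep1, a serine carboxypeptidase (−1.32), and Cmtm6, which stabilises PD-L1 at the cell surface (−1.20). It also called Aco1, the cytosolic aconitase that also acts as an iron regulatory protein (−1.14). Srsf10, a splicing factor (−0.98), and Flvcr1, a haem exporter (−0.98), were called too. The other bright probe set lay at 0.52 for Scpep1, 0.14 for Cmtm6 and −0.22 for Aco1. Those of Srsf10 lay at −0.34, 0.07 and −0.04. In the HOXB4const pairs the called probe set of Scpep1 differed by −2.11 and 1.79, and that of Cmtm6 by −1.34 and 1.20. That of Aco1 differed by −2.17 and 1.20. After quantile normalization the fit to 4 arrays called 88 probe sets, 52 of them bright, and 4 of the 12 named higher genes (Cd99, Kcnj11, Ppp5c and Maz) and 4 of the 12 lower ones (Zfp383, Raly, Spred1 and Fnip1).

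Probe sets of the same gene tended not to share these calls. Among the 84 bright probe sets called, 26 (31%) were of the x_at class, whose probes can match several transcripts, against 9.24% of all bright probe sets. Of the called probe sets with 1 symbol, 55 had another bright probe set of their gene. In 19 of the 55 all other bright probe sets had the same sign, and in 2 another was called. Of the 109 other probe sets, 59 had the same sign as the called one. The called probe sets had a median absolute difference of 0.99, and the others had a median of 0.03 in the called direction.

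Anp32a, a histone chaperone and phosphatase inhibitor, shows this most sharply. The probe set with the smallest p of the whole comparison was 1 of the 3 of Anp32a, and it read 6.70 and 6.08 without TMX, against 9.15 and 8.44 with TMX, a difference of −2.41 ± 0.33. The brightest probe set of Anp32a differed by −0.29 ± 0.25 and the dimmest by 0.50 ± 0.32. Rps10 was split in the same way: 4 of its 5 bright probe sets lay between 0.23 and 0.81, while the dimmest of them, of the x_at class, read 8.70 and 10.76 without TMX and 10.85 and 11.30 with TMX, −1.34 ± 0.70. For Hmgcs1, the enzyme that makes HMG-CoA for cholesterol synthesis, the 4 bright probe sets gave −0.41, −0.45, −1.002 and 0.16. Anp32a and Hmgcs1 were chosen after their values were seen.

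Genes with 2 or more bright probe sets allow a stricter count. There were 1677 of them, and all bright probe sets were separated higher in 32 (1.91%) and lower in 37 (2.21%). Apart from Ppp5c and ribosomal proteins, the higher ones included Eif5a, a translation factor (mean of its probe sets 0.64), Pik3cd, the leucocyte PI3-kinase subunit (0.52), Calr, an endoplasmic reticulum chaperone (0.51), and Adgrg1, an adhesion receptor of stem cells (0.48). The lower ones included Pnrc2, a factor of messenger RNA decay (−1.01), Cat, the peroxisomal catalase (−0.66), and Dipk2a (−0.53). In HOXB4const cells the mean differences were 0.16 for Eif5a, −0.08 for Pik3cd, −0.09 for Calr and 0.12 for Adgrg1. Those of the lower examples were −0.31 for Pnrc2, −0.35 for Cat and −0.07 for Dipk2a. These examples were chosen after their values were seen.

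The genes with the brightest signals lay higher without TMX as a class. Of the 111 genes with a mean of 12 or more, 72 (64.9%) had separated arrays with the higher values without TMX and 0 were separated lower, with a median difference of 0.37 (log2). The 5775 bright genes below 12 had a median of −0.04, with 10.8% separated higher and 13.9% lower. At 13 or more, all 23 genes were separated higher, with a median of 0.62. The shift was larger in pair 1 (median 0.53 for the 111 genes) than in pair 2 (0.21), and HOXB4const cells had one in the same direction, with a median of 0.24, 36 separated higher and 1 lower.

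This shift went with the distribution of signal on the arrays. After quantile normalization, which gives every array the same distribution, the median of the 111 genes was 0.01, with 14 separated higher and 13 lower. Equal distributions take out a shift of the brightest genes as a class whatever its cause, so this outcome was largely fixed by the method. The array of HOXB4-ER cells without TMX replicate 1 had a maximum of 14.61 and the other array without TMX 13.88, against 13.38 and 13.59 on the arrays with TMX. Bacterial spike-in controls averaged 12.5 and 10.8 on the arrays without TMX, against 10.0 and 9.86 with TMX. The part of array handling in the shift was not tested.

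**Figure D4:**
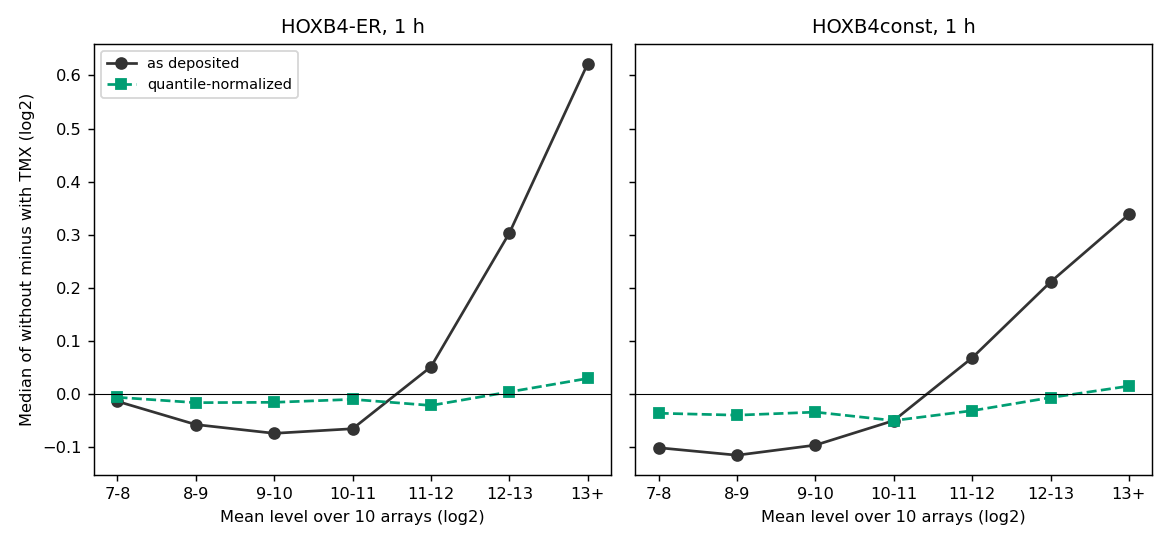
Median difference without minus with TMX after 1 h (log2) over bright genes binned by mean level, in HOXB4-ER cells (left) and HOXB4const cells (right), as deposited (black) and after quantile normalization (green). As deposited, the median reaches 0.62 in HOXB4-ER and 0.34 in HOXB4const cells in the highest bin; after quantile normalization both stay within 0.05 of 0 in every bin.

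Ribosomal protein genes, many of them in this class, took part in the shift. Of 21 bright members, 17 were separated higher and 1 lower, with a median of 0.44, and 0 passed the test. Among all bright genes 11.8% were separated higher and 13.6% lower, and these shares belong beside every list count below. Rplp0, of the ribosomal stalk, read 14.11 and 13.24 without TMX, against 12.81 and 12.98 with TMX. Rpl4 read 14.30 and 13.79 without TMX, against 13.19 and 13.38 with TMX. Rps14 differed by 0.57 ± 0.26 and Rps2 by 0.62 ± 0.30. In HOXB4const cells the list's median was 0.15, with 5 separated higher. After quantile normalization the HOXB4-ER median was 0.01, with 2 separated higher and 3 lower. The 77 genes at 12 or more that are no ribosomal protein genes had a median of 0.29, so the shift was not confined to ribosomes.

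The HOX and stem cell programme, in which HOXB4 acts, showed no call. Of 17 measured HOXA, HOXB and TALE genes, 5 were bright, with a median of −0.27, 4 of them below 0 and 1 separated lower. Among all 5886 bright genes, 3291 lay below 0 and 13.6% were separated lower. Hoxa9, a driver of progenitor self-renewal, was the separated one and read 9.58 and 9.79 without TMX, against 10.03 and 10.51 with TMX. It was lower by 0.58 ± 0.24, with −0.08 ± 0.24 in HOXB4const cells and −0.40 after 4 h. Meis1, the DNA-binding partner of HOX proteins, read 7.22 and 8.20 without TMX and 7.74 and 8.36 with TMX, so that its groups overlapped although it was lower in both pairs.

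Stem cell transcription factors spread to both sides of 0. Of 17 bright genes, 2 were separated higher and 3 lower, with a median of 0.11. Zfx, a regulator of stem cell renewal, differed by −0.54 ± 0.27, Gfi1, a repressor that restrains stem cell cycling, by −0.51 ± 0.32, and Gata2, which maintains stem cells, by 0.27 ± 0.25. Among 10 bright surface receptors, 0 were separated higher and 1 lower. That one was Ptprc, which read 11.40 and 10.87 without TMX, against 11.85 and 11.61 with TMX, a difference of −0.59 ± 0.27, while in HOXB4const cells it lay at 0.45 ± 0.27 with separated arrays. Cd34 and Kit differed by 0.33 ± 0.30 and −0.27 ± 0.32.

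Of 6 genes published as HOXB4 targets, 2 were bright. Myc, the growth-promoting transcription factor, read 8.78 and 8.95 without TMX, against 8.36 and 8.53 with TMX. Both pairs gave 0.42, and HOXB4const cells gave −0.74 ± 0.38. Laptm4b, a lysosomal membrane protein, differed by −0.29 ± 0.30. Mnt, which antagonises Myc, differed by −0.21 ± 0.26, and of the 6 bright genes in the Myc, Max and Mxd network 1 was separated higher, namely Myc. Every single array without TMX thus lay above both arrays with TMX. The fitted difference still turned in fits that left out 1 array, which adjust the lone array by the replicate step of the other groups. It was −0.0822 without the replicate 2 array without TMX, and −0.083 without the replicate 1 array with TMX.

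Immediate early genes, which respond to growth factor signals within minutes, lay mostly above 0, and none passed. Of 11 bright members, 8 lay above 0, as did 2595 of the 5886 bright genes, and the median was 0.25. Only 1 was separated higher, against 11.8% of all bright genes. The median was 0.02 in pair 1 and 0.42 in pair 2. Ier3, an early gene of cell survival, read 8.32 and 6.66 without TMX, against 7.51 and 6.14 with TMX, 0.67 ± 0.30. Zfp36, which destabilises cytokine messages, read 8.87 and 6.52 without TMX and 8.72 and 5.72 with TMX. For both genes the 2 replicate numbers lay further apart than the 2 conditions. In HOXB4const cells the list had a median of −0.05.

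The ERK feedback list, Spred1 included, had a median of 0.04 over 7 bright genes, with 0 separated higher and 2 lower. The one separated lower besides Spred1 was Rasa2, a RAS GTPase-activating protein, which read 8.75 and 8.82 without TMX, against 9.20 and 9.32 with TMX. It was lower by 0.47 ± 0.27 and by 1.32 after 4 h, against the same arrays with TMX. JAK-STAT genes had a median of 0.00 over 13 bright genes, with 2 separated higher and 0 lower. Socs2, a feedback inhibitor of cytokine receptors, read 7.39 and 6.35 without TMX and 8.39 and 6.65 with TMX.

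Developmental pathways showed small medians below 0. In the Wnt list 4 of 13 bright genes were separated higher and 5 lower, with a median of −0.24. Of all bright genes 11.8% were separated higher and 13.6% lower, and the list as a whole was not tested. Tle4, a corepressor, read 7.51 and 7.34 without TMX, against 8.39 and 8.02 with TMX. Tle4 was lower by 0.78 ± 0.30 in HOXB4-ER cells and lay at 0.39 ± 0.30, separated higher, in HOXB4const cells, and the difference between populations of −1.17 ± 0.43 did not pass. Wls, which carries Wnt ligands to the surface, was lower by 0.50 and Csnk1a1, a kinase that primes beta-catenin for destruction, by 0.31. In the TGF-beta list 3 of 14 were separated higher and 4 lower, with a median of −0.17. Tgfb1 itself read 11.50 and 10.93 without TMX, against 10.53 and 10.60 with TMX, 0.66 ± 0.30, and Smad1, a transducer of BMP signals, was lower by 0.34. In the Notch list Ncstn, a subunit of gamma-secretase, differed by 0.51 ± 0.31 and Rbpj, the DNA-binding partner of Notch, by −0.34 ± 0.30, with a list median of −0.09.

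Lists of inflammation and interferon signalling held no call either. The NF-kB list had a median of 0.00 over 15 bright genes, with 0 separated higher and 2 lower. Nfkbie, an inhibitor of NF-kB, read 6.86 and 5.36 without TMX, against 7.76 and 6.50 with TMX, and differed by −1.02 ± 0.52 with overlapping groups. The interferon list had a median of 0.16 over 12 bright genes, with 2 separated higher and 1 lower. Bst2, which tethers budding viruses, differed by 0.48 ± 0.26 and Ifi35 by −0.46 ± 0.28.

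Targets of p53 lay mostly below 0, and none passed. Of 9 bright p53 targets 8 lay below 0, as did 3291 of the 5886 bright genes, and the list's median was −0.18. Ccng1, cyclin G1, read 8.40 and 9.33 without TMX, against 9.40 and 9.70 with TMX. It was lower by 0.68 ± 0.28, whereas in HOXB4const cells it lay at 0.50 ± 0.28. Its 3 bright probe sets gave −0.68, 0.21 and −0.12, a mean of −0.20. Trp53inp1 differed by −0.83 ± 0.48, Pmaip1, the BH3-only protein NOXA, by −0.51 ± 0.31 and Perp by −0.40 ± 0.25, all 3 with overlapping groups. After 4 h the list's median was 0.50 against the same arrays with TMX. In the BCL2 family, Bak1, an effector of mitochondrial permeabilisation, read 7.88 and 8.24 without TMX, against 7.43 and 7.86 with TMX, and the median over 8 bright genes was 0.09.

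The cell cycle showed no joint difference. DNA replication genes had a median of −0.05 over 27 bright genes, with 5 separated higher and 1 lower, and mitosis genes a median of 0.00 over 24, with 1 separated in each direction. Rfc4, of the clamp loader, differed by −0.46 ± 0.27 and Gins2, of the replicative helicase, by −0.38 ± 0.28. Bub1, a spindle checkpoint kinase, read 8.56 and 9.42 without TMX, against 9.03 and 9.84 with TMX, so that its groups overlapped, and Hmmr, a spindle protein, differed by −0.40 ± 0.25. Ccnd3, the D cyclin of blood cells, read 9.36 and 8.93 without TMX, against 8.37 and 8.63 with TMX, 0.64 ± 0.34. E2f3, which drives entry into S phase, was lower by 0.44 with separated arrays.

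Metabolic and protein quality lists lay close to 0. Oxidative phosphorylation had a median of 0.03 over 30 bright genes (6 separated higher, 0 lower), with −0.39 for Ndufc1 and 0.34 for Atp5g1. The proteasome had a median of 0.02 over 27 (3 and 1), with 0.37 for Psmd2 and 0.35 for Psmb2. Ribosome biogenesis had a median of 0.07 over 28 (4 and 0). Ncl, nucleolin, read 12.77 and 12.21 without TMX, against 12.00 and 12.01 with TMX, and Nop2, a ribosomal RNA methyltransferase, differed by 0.36 ± 0.23. Glycolysis had a median of −0.04 over 19, with Aldoa and Ldha at 0.42 and 0.37.

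Stress and lipid genes were similar. The unfolded protein and integrated stress list had a median of 0.09 over 19 bright genes, with Calr at 0.43 and Dnajb9, a chaperone induced by the IRE1 branch, at −0.48. Heat shock chaperones had a median of 0.06 over 16. Hspa8, the constitutive HSP70, read 13.49 and 13.15 without TMX, against 12.44 and 12.80 with TMX, and was separated higher in HOXB4const cells too, while St13, its cochaperone, differed by −0.35 ± 0.27. Cholesterol and fatty acid genes had a median of 0.02 over 19. Acaca, which makes malonyl-CoA, read 8.72 and 8.65 without TMX, against 7.59 and 8.49 with TMX, and Fdps, which makes farnesyl diphosphate, differed by 0.63 ± 0.37. Polycomb and trithorax genes had a median of −0.03 over 19, with Men1, menin, at 0.53 ± 0.26 and Kmt2e at −0.41 ± 0.27.

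Over all pathway lists together, 403 bright genes had a median of 0.01, and 65 (16.1%) were separated higher and 38 (9.43%) lower. That compares with 11.8% and 13.6% of all bright genes. In no list did a member pass the test. For several members the value depended on the probe set. The mean over a gene's bright probe sets was nearer 0 than its brightest one by more than 1.5 times for Ncl (−0.01), Gins2 (−0.00241), Kmt2e (−0.06), Rbpj (−0.08), Csnk1a1 (−0.14), St13 (−0.16), Wls (−0.20), Aldoa (0.21), Hspa8 (0.24) and Rasa2 (−0.28). Outside the lists the same held for Ubr3 (0.15), Hars (−0.17) and Armcx2 (−0.55). After quantile normalization the differences of the brightest probe sets were 0.11 for Ldha, 0.13 for Aldoa, 0.21 for Ncl and 0.24 for Hspa8.

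**Figure D5:**
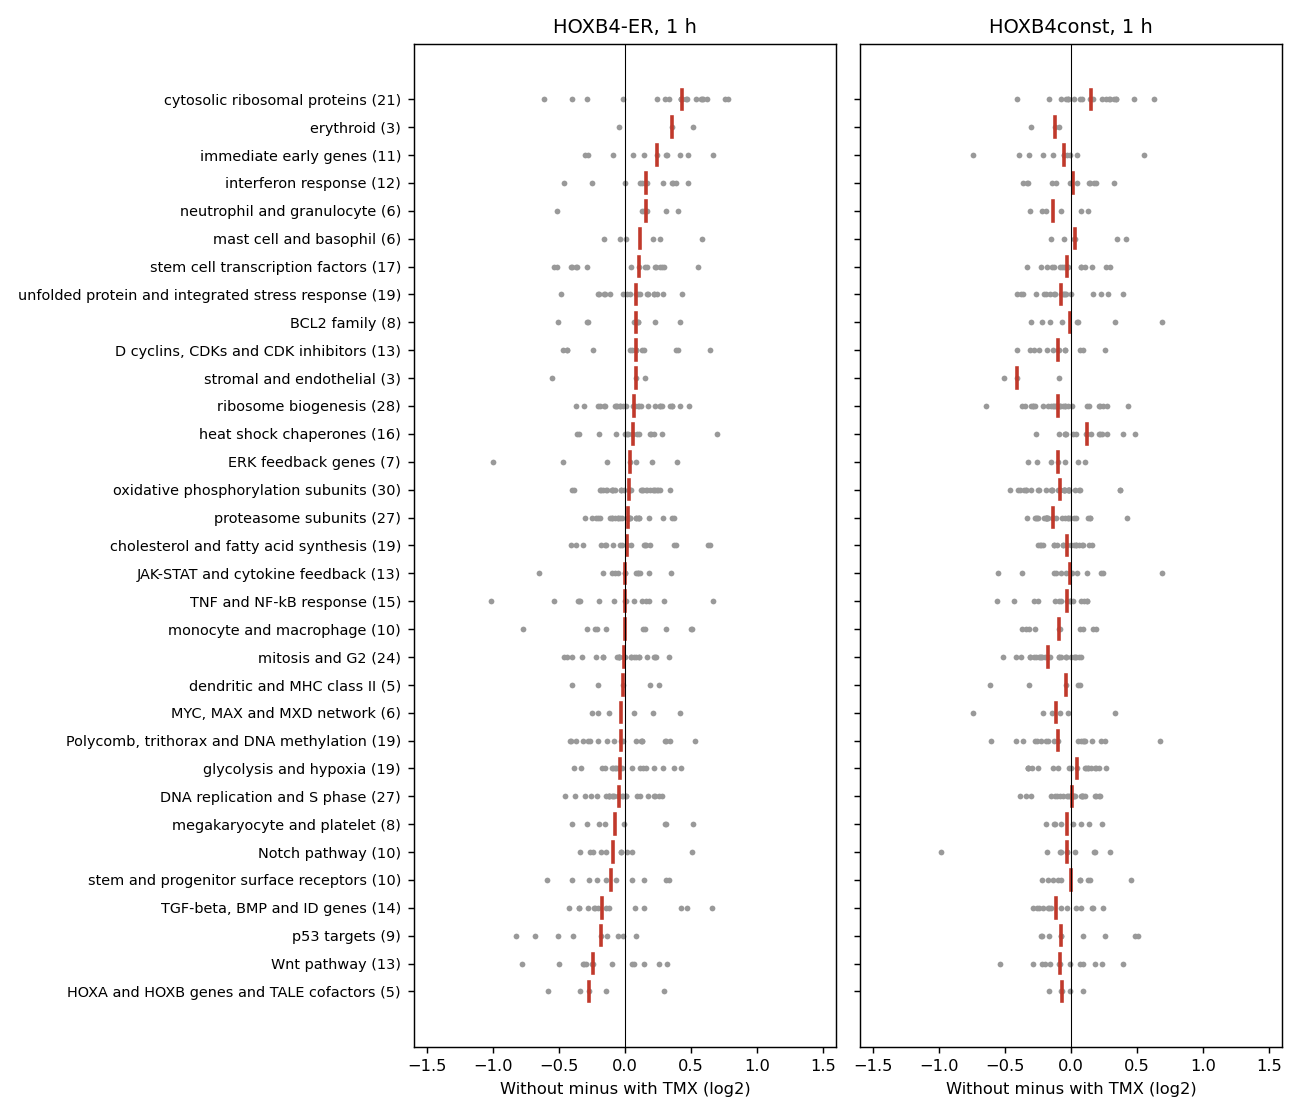
Differences without minus with TMX after 1 h (log2) of the bright members (grey points) of each gene list with at least 3, and their median (red bar), in HOXB4-ER cells (left) and HOXB4const cells (right), with the number of members in brackets. The ribosomal protein list has the highest HOXB4-ER median, at 0.44, and the HOX and TALE list the lowest, at −0.27; the other HOXB4-ER medians lie between −0.24 and 0.35.

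Markers of other blood cells were examined because the sorted cells had been in culture and could have matured. In bulk RNA, fewer cells of a type and less RNA per cell cannot be told apart. Summed over its 17 measured genes, the monocyte list reached 15 and 11.61 (log2 of the summed signal) without TMX, against 14.55 and 11.58 with TMX. The replicate numbers were thus further apart than the conditions. Mpeg1, a macrophage perforin, read 10.80 and 4.05 without TMX and 10.91 and 5.47 with TMX, and Lyz2, lysozyme, 13.07 and 9.06 without TMX and 12.42 and 8.71 with TMX. The difference of Lyz2 was 0.50, or 0.28 after quantile normalization. Of the 17 genes, 4 had a mean under 5.

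The sums of the remaining marker lists differed by at most 0.47 between the conditions of a pair. The neutrophil list summed to 14.76 and 14.41 without TMX and 14.56 and 14.21 with TMX, and Mpo, myeloperoxidase, differed by 0.40 ± 0.28, or by −0.02 after quantile normalization. The mast cell list summed to 14.03 and 13.79 without TMX and 13.66 and 13.52 with TMX, and its member Srgn, a granule proteoglycan, differed by 0.58 ± 0.28 with separated arrays, or by 0.25 after quantile normalization. The erythroid list summed to 11.21 and 11.59 without TMX and 10.98 and 11.53 with TMX, with 3 of its 19 genes bright and 12 under 5. Nfe2, a factor of erythroid and megakaryocytic cells, read 9.19 and 9.62 without TMX, against 8.61 and 9.17 with TMX, and Car2, carbonic anhydrase, differed by 0.35 ± 0.33. The megakaryocyte list summed to 12.11 and 12.90 without TMX and 12.31 and 12.65 with TMX, and Selp differed by −0.29 ± 0.26.

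Lymphoid markers summed to 10.73 and 9.77 without TMX and 10.67 and 9.31 with TMX, with 15 of 22 genes under 5, and Nkg7 differed by 0.26 ± 0.47. Dendritic markers summed to 13.44 and 11.80 without TMX and 13.28 and 11.60 with TMX, with Cst3 at 0.26 ± 0.24 (0.12 after quantile normalization) and Flt3 at −0.40 ± 0.36. Stromal and endothelial markers summed to 12.61 and 11.57 without TMX and 12.52 and 11.49 with TMX, and Pdgfrb differed by −0.55 ± 0.39. The part of these cells in the differences of other genes was not tested. The Gapdh controls at the 3′ end exceeded those at the 5′ end, a gap that grows when RNA or its copies are short. In HOXB4-ER cells after 1 h the gap was 1.24 ± 0.33 without TMX and 1.39 ± 0.50 with TMX (log2, SD, n = 2 each). It was wider and less even in HOXB4const cells, at 2.63 ± 1.91 without TMX and 1.83 ± 1.55 with TMX. In HOXB4-ER cells after 4 h it was 2.45 ± 1.45. Its part in the comparisons with those groups was not tested.

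Promoters are shown for 3 of the named genes because HOXB4 is a DNA-binding protein: Zfp383 with the largest difference, and Uhrf2 and Spred1, whose brightest probe sets lay on the same side after 4 h. Other named genes, such as Kif5b and Mapkapk2, did so too. The 4 h differences use the same arrays with TMX as the ranking, so the side is partly fixed by the choice. Each sequence is the 250 bases before the gene's start, from RefSeq on GRCm38.p6, 5′ to 3′ on the gene's strand. Capitals mark the letters TAAT, the core of homeodomain sites, read on either strand, which is ATTA on the printed one.
Zfp383, chr7:29908267-29908516 (+): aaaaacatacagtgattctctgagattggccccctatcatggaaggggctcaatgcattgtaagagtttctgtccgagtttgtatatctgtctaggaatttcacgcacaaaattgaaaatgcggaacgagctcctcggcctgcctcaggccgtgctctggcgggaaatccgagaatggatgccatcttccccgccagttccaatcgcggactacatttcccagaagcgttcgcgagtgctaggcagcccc
Uhrf2, chr19:30030263-30030512 (+): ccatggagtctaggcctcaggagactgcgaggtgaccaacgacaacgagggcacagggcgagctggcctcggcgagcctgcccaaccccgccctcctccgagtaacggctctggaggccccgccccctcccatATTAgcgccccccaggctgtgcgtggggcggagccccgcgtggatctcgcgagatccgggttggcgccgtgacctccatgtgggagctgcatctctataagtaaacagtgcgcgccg
Spred1, chr2:117120821-117121070 (+): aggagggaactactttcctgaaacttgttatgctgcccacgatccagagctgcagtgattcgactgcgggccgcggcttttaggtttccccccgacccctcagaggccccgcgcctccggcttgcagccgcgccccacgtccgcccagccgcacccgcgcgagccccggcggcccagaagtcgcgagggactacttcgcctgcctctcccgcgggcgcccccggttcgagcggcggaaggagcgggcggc

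A window was at hand for 19 of the 24 named genes, 9 higher and 10 lower. TAAT on either strand was present in 5 of the 9 higher genes (Uhrf2, Msl2, Bahcc1, Eef1a1 and Mospd3) and in 2 of the 10 lower genes (Orc4 and Ccm2), against 58.5% of 27025 genes with windows of the same length. TGATNNAT, letters bound by HOX proteins with PBX, searched on both strands, was found in 0 of the 19, against 8.81% of all genes. The 2 motifs can overlap. A match is a description of letters and not a site, and its absence says only that the letters are not in this window.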

How the data were processed

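Per the labels, biotin-labelled cRNA made from total RNA of 10 samples was hybridised, each to an Affymetrix mouse array. The deposited file holds a log2 signal for each of 45101 probe sets. GCOS and RMA are listed in the submitters' processing notes, with no role given. The trimmed mean of the linear values was 100.0 on every array, quantiles differed between arrays and some values were negative. The deposited log2 values were therefore taken as globally scaled GCOS signals and used as they are. The background correction was not given in the sources used here. Array medians ran from 3.96 to 5.32, the last on the first replicate of HOXB4const without TMX. The number of arrays limits the precision.

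After removal of 64 controls, 45037 probe sets were tested: 34945 with a single symbol in the array's annotation table, 932 with several and 9160 that it does not list. A gene was represented by its single-symbol probe set with the highest mean, and was reported if that mean was 7 or more (5886 genes; 9014 probe sets reach this level).

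The model was limma 3.58.1 (R 4.3.3) over all 10 arrays, with a mean per group, the replicate number as a block, empirical Bayes with a trend (4 residual and 11.2 prior degrees of freedom), two-sided tests and Benjamini-Hochberg adjustment over all 45037 probe sets at a threshold of 0.05. Errors of differences are limma's standard errors. The pairing was checked on bright probe sets: the step between replicate 1 and replicate 2 correlated at 0.363 to 0.731 in all 10 comparisons of one group with another. Whether same-numbered arrays share donors is unknown, so p-values measure the spread between these samples, which may be technical.

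Named genes were the 12 higher and 12 lower bright genes with separated arrays and the smallest p, bright members of each list by p (up to 4, not all printed), Hoxb4 and Esr1, the neighbours of the limit of 7, and 3 genes in each direction for HOXB4const and for the difference between populations. Exceptions are named as such. The members, lists and tests were chosen with earlier results of these data known. The fit was also run on simulated data with independent noise and no replicate step, unlike the real arrays, and no result here rests on that run. Python 3.11.15 was used for promoters and figures.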

Additional observations from a re-analysis of the deposited data

How the results depend on the processing

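With 2 arrays a group, these data describe broad shifts better than single genes. With all 10 arrays, no alternative called any probe set in the HOXB4-ER comparison: without the variance trend, with centred or quantile-normalized arrays, with other limits on the mean, or with the mean over a gene's probe sets. The replicate block was in the design because the numbers pair the samples. With no replicate block the fit called 0 probe sets in each of the 3 comparisons, with 1385 unadjusted p under 0.05 in HOXB4-ER cells. The 4-array fit called 135 probe sets for HOXB4-ER. After quantile normalization, an alternative chosen after seeing the data, it called 88 for HOXB4-ER and 1 for HOXB4const. That fit estimates the spread from fewer arrays, and the cause of the gap was not tested. A limit of 8 counted fewer genes and left 387 separated higher and 498 lower. Centring the arrays moved the median of bright genes to 0.00283.

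Leaving out each array in turn gave 0 to 2 calls for HOXB4-ER, 0 to 61 for HOXB4const and 0 to 9 for the difference between populations. All calls came from leaving out a HOXB4const without TMX array. Without its replicate 1 there were 2, 11 and 9 calls, and without its replicate 2 there were 2, 61 and 1, in the order just given. Both times the 2 HOXB4-ER calls were the Anp32a probe set at −2.41 (adjusted p = 0.00193 and 0.00163) and a probe set with no single symbol at −1.70 (0.0272 and 0.0278). Separated counts ran between 696 and 1983 higher and between 800 and 2568 lower, since a lone array separates more easily, and the median between −0.0687 and 0.000782, the last without the HOXB4-ER without TMX replicate 2 array.

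Among named genes, the sign turned for Poli with centred arrays (0.000551), for Mpo with quantile normalization, also in the 4-array fit (−0.0209), and for Ncl with the mean over its probe sets (−0.0134). Leaving out an array turned the sign of 11 genes. Such a fit adjusts the lone array by the replicate step of the other groups, and the cause for each gene was not tested. Without the HOXB4-ER without TMX replicate 2 array this held for Myc, Fdps (range −0.0998 to 1.36), Mpeg1 (−1.85 to 0.31), Poli (−0.35 to 0.27), Hes6 (−0.45 to 0.0813) and Mrpl22 (−0.22 to 0.0692). Without its replicate 1 it held for Lyz2 (−0.035 to 1.03) and Pdgfrb (−1.17 to 0.0715). Without the HOXB4-ER with TMX replicate 1 array it held for Myc (−0.083 to 0.92), Laptm4b (−0.67 to 0.0826), Gata2 (−0.0757 to 0.61) and Poli, and without its replicate 2 for Zfp36 (−0.0929 to 1.04).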
